A study of Homo sapiens with 4 samples.

Results

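The HSP70 family genes described here are 10 of the 69222 gene identifiers in the count files: HSPA1A, HSPA1B, HSPA2, HSPA4, HSPA5, HSPA6, HSPA8, HSPA9, HSPA13 and HSPA14. They were found by symbol, each matched 1 identifier with the family symbol, and all 10 passed the low-count filter that left 20319 genes. The family was selected on its normalised read counts in the control and knockdown libraries, with the difference in HSPA6 in view, so its fold changes are given below as a description, with no p-value, and no call of a member is read as support. Poly(A) RNA was sequenced from HEK293T, an established human line of embryonic kidney origin that expresses the large T antigen of SV40, after lentiviral transduction with a short hairpin RNA. The control hairpin group (shCtrl) has 2 libraries and the group with a hairpin against RPRD1B (shRPRD1B) has 2. RPRD1B binds the phosphorylated C-terminal domain of RNA polymerase II. All groups share the line, the medium and the growth temperature, and no heat shock or other stress is named in the labels. No source used here gives the hairpin sequences, the number of hairpins or the time between transduction and harvest, and the labels do not say that replicates were separate cultures.

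HSP70 proteins are chaperones with an N-terminal ATPase domain and a C-terminal domain that holds stretches of unfolded polypeptide. J-domain proteins bring them substrates and stimulate ATP hydrolysis, and nucleotide exchange factors such as BAG proteins and HSPH1 release ADP and the substrate. In the human family HSPA8 is the constitutive cytosolic form, HSPA1A, HSPA1B and HSPA6 are the forms induced by heat through the transcription factor HSF1, HSPA5 (BiP) works in the endoplasmic reticulum, HSPA9 (mortalin) in mitochondria and HSPA4 belongs to the HSP110-like branch that serves as an exchange factor. HSPA6 is known as a strictly inducible gene that is nearly silent in most unstressed cells and has no mouse counterpart.

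Short promoter stretches are shown first, because they hold the elements by which the heat-induced and endoplasmic reticulum members are known to be regulated. HSF1 binds inverted repeats of GAA, called heat shock elements. Each promoter in RefSeq (GRCh38.p14, 250 bases before to 50 after the start) was searched on both strands for the 3-unit forms GAANNTTCNNGAA and TTCNNGAANNTTC and the 2-unit forms GAANNTTC and TTCNNGAA. A 3-unit match contains 2 of the 2-unit matches. The lines below run 5′ to 3′ on the strand of the gene, and the capitals mark the matched letters.
HSPA6, 3 units, chr1:161524458-161524487, plus strand: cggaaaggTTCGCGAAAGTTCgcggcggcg
HSPA8, 3 units, chr11:123062345-123062374, minus strand: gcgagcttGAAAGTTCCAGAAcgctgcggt
HSPA8, 3 units, chr11:123062170-123062199, minus strand: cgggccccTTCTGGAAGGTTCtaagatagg
HSPA1A, 2 units, chr6:31815426-31815455, plus strand: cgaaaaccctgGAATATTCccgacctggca
HSPA1B, 2 units, chr6:31827622-31827651, plus strand: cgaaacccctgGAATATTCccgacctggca
HSPA5, endoplasmic reticulum stress element, chr9:125241385-125241414, minus strand: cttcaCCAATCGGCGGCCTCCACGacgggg

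The 3-unit form was present in 0.490% of the 35116 promoters and the 2-unit form in 13.5%. HSPA6 had 3 matches to the 2-unit form and 1 to the 3-unit form, the latter at -74 to -62 relative to the start. HSPA8 had 4 and 2, with the 3-unit matches at -230 to -218 and at -55 to -43. HSPA1A and HSPA1B had 1 match each to the 2-unit form, at -106 to -99 and at -105 to -98, and none to the 3-unit form. Both also had TATAAA, at -30 to -25 in HSPA1A and at -29 to -24 in HSPA1B, a word found in 11.5% of promoters and in none of the other members' windows. HSPA9 had 1 match to the 2-unit form. The promoter of HSPA5 held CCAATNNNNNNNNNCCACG, the endoplasmic reticulum stress element bound by ATF6 with NF-Y, at -66 to -48. It was the only member with this word, which occurs in 27 of all the promoters (0.0769%). HSPA2, HSPA4 and HSPA13 had no match to either heat shock form, and HSPA14 was not in the promoter table. Only exact words within this window were searched, so no match does not show that an element is absent.

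The total count per library ran from 47732913 to 65572391, and of the 20319 genes tested edgeR called 8 lower and 6 higher in shRPRD1B. RPRD1B was at 50.4 and 50.1 CPM (counts scaled to a common library size with TMM factors) in shCtrl and at 27.2 and 35.5 CPM in shRPRD1B, a log2 fold change of -0.68 ± 0.16 (SE), with an edgeR adjusted p of 0.448 and a DESeq2 adjusted p of 0.0467. The knockdown libraries were farther from each other than the controls were: over 8930 genes of at least 16 CPM on average, the SD of the log2 ratio between the libraries of a group was 0.136 in shCtrl and 0.370 in shRPRD1B. All 6 HEK293 markers were detected, at 382 to 520 CPM in sum per library, with the lowest value in shRPRD1B 2. Of these 6, 1 had a positive fold change, and the median log2 fold change was -0.12. In 3 of them both knockdown libraries were below both controls, and in 0 both were above. The sums of all marker lists but that of HEK293 were lower or higher in both knockdown libraries than in both controls. Their part in the differences below was not tested. Leukocyte markers summed to 4.37 and 4.40 CPM in shCtrl and to 4.27 and 2.79 CPM in shRPRD1B, with FCGR3A at 0. Fibroblast markers summed to 38.0 and 33.6 CPM in shCtrl and to 24.5 and 22.2 CPM in shRPRD1B, with FAP and COL1A2 at 0. Most of this was COL1A1, at 32.9 and 27.3 CPM against 20.1 and 19.4 CPM. LUM was called lower by DESeq2 (adjusted p 0.0217). Of the 4 tested fibroblast markers 1 had a positive fold change, PDGFRB, at 0.633 and 0.616 CPM against 1.13 and 0.639 CPM. Epithelial markers summed to 7.37 and 6.86 CPM against 6.56 and 3.90 CPM, with KRT19 at 0, and neuron markers to 17.1 and 17.0 CPM against 27.8 and 23.8 CPM. Of the 5 tested neuron markers 4 had a positive fold change, and TUBB3 a negative log2 fold change of -0.44 with overlapping groups. In bulk RNA, fewer cells with a transcript and less of it per cell cannot be told apart. With no separate cultures named, the p-values rest on the variation among these 4 libraries alone, and that variation may be technical.

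HSPA6 was the member that differed most between the groups. It had 623 and 775 reads in the shCtrl libraries and 53 and 29 in the shRPRD1B libraries, or 13.2 and 15.9 CPM against 0.809 and 0.529 CPM. Both knockdown libraries were far below both controls, and the deeper libraries held the fewer reads. The mean was 14.5 ± 1.96 CPM (SD, n = 2) in shCtrl and 0.669 ± 0.198 CPM (SD, n = 2) in shRPRD1B, a 21.7-fold lower level. The fitted log2 fold change was -4.42 ± 0.27 (SE), with a 95% interval from -5.09 to -3.74. Across every alternative setting and each left-out library it lay between -4.77 and -4.16. Among the 11551 genes with at least 5 CPM in shCtrl, 3 had a lower log2 fold change than HSPA6 and 13 had one below -3. HSPA6 passed the edgeR threshold and was the only 1 of the 10 members to do so, with 0.0689% of all genes tested called, 0.0394% lower and 0.0295% higher. It was also the 1 member called by DESeq2, which called 1.18% of all genes. The same held with the replicate number as a block, which called 0.694%. Limma voom and edgeR with a minimum of 5 CPM in 2 libraries did not call HSPA6, and each called 0 genes. With 1 library left out, the log2 fold change ran from 0.05 to 0.35 for HSPA5 and from -0.08 to 0.41 for HSPA8. For HSPA9, HSPA13 and HSPA1B it ran from 0.05 to 0.26, 0.30 to 0.37 and -3.53 to -0.40. Each such fit leaves 1 group with 1 library, so its calls are not given by member. Because this contrast led to the choice of the family, nothing is read from which members were called.

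HSPA6 lies on chromosome 1 from 161524540 to 161526894 (GRCh38.p14) and is a gene of 1 annotated transcript of 2371 bases. Its near copy HSPA7, a pseudogene, lies on chromosome 1 from 161606172 to 161608550. The longest run of identical bases between the transcripts is 310, and 45.5% of the 50-base words of the HSPA6 transcript also occur in HSPA7, which makes the split of reads between them uncertain. HSPA7 had 18 and 14 reads in shCtrl and 8 and 2 in shRPRD1B. As a share of the HSPA6 count this was 2.89% and 1.81% in the controls and 15.1% and 6.90% in the knockdowns. With both genes summed to 1 row the counts were 641 and 789 against 61 and 31, and the log2 fold change was -4.29 ± 0.28 (SE). The longest identical run of HSPA6 with HSPA1A is 34 bases and with HSPA8 20 bases.

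The 3 protein-coding genes within 100 kb of HSPA6 are the Fc receptor genes FCGR2A, FCGR3A and FCGR3B, which are expressed in blood cells. FCGR2A, whose end lies 492 bases from HSPA6, had 9 and 10 reads in shCtrl and 6 and 9 in shRPRD1B. FCGR3A was at 0 in all 4 libraries and FCGR3B had 2 reads in 1 of them. Every neighbour was thus below 1 CPM in each library, and HSPA6 was above that level in the shCtrl libraries alone.

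HSPA1A and HSPA1B, the major heat-induced forms, had low counts in all libraries but 1. HSPA1A had 18 and 17 reads in shCtrl and 18 and 22 in shRPRD1B, and the groups overlapped (log2 fold change -0.13 ± 0.46, SE). HSPA1B had 25 and 225 reads in shCtrl and 26 and 22 in shRPRD1B, or 0.528 and 4.62 CPM against 0.397 and 0.401 CPM. The control library with 225 reads stands apart from the other 3, which lie close together. The fitted log2 fold change of HSPA1B was -2.69 ± 1.05 (SE, 95% interval -5.31 to -0.07), and without shCtrl 2 it was -0.40. The second shCtrl library was therefore 8.76 times the first for HSPA1B, while the same ratio for the other 9 members ran from 0.914 to 1.21.

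The low counts of HSPA1A and HSPA1B cannot be read as low levels of their transcripts. The genes lie next to each other on chromosome 6, from 31815543 to 31817942 and from 31827738 to 31830254, and share an identical run of 1715 bases, so that 72.6% of the 50-base words of HSPA1A and 73.5% of those of HSPA1B occur in another gene. Summed, they had 43 and 242 reads in shCtrl and 44 and 44 in shRPRD1B (log2 fold change -2.01 ± 0.81, SE). Of the exon bases of HSPA1B, 36.5% lie under another annotated gene on the same strand. GENCODE 29 also holds 8 transcripts named HSPA1A and 7 named HSPA1B outside the primary chromosomes, on alternate versions of this region, and none for the other 8 members. The files hold identifiers that GENCODE 29 lacks, so further copies in the annotation the authors used were not tested for. They count such copies as genes of their own: 5953 of their 6536 identifiers without a symbol are GENCODE 29 genes outside the primary chromosomes.

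The neighbours of HSPA1A and HSPA1B had the same kind of counts. Of the 17 protein-coding genes within 100 kb, 16 have such copies, 8 were at 0 in every library and 13 below 1 CPM in every library. CLIC1, which encodes a chloride channel protein, had 834 and 5 reads in shCtrl and 6 and 2 in shRPRD1B. VARS1, the valyl-tRNA synthetase that every cell needs, had 293 and 25 reads in shCtrl and 1872 and 69 in shRPRD1B. LSM2, part of the U6 snRNA-binding ring, had 0 and 71 reads in shCtrl and 2 and 2 in shRPRD1B. DDAH2 was steadier, with 137 and 137 reads against 181 and 93. Single libraries thus stood far from the others for several genes beside HSPA1B, and not the same library each time. Of the 20319 tested genes, 357 were classed as having such copies and 15748 as having none, and the rest were not classed. Differences of more than 4-fold between the libraries of a group occurred in 26.9% and 2.03% of them. These sets were not matched for count level. What part such copies have in the HSPA1B counts was not tested.

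**Figure D1:**
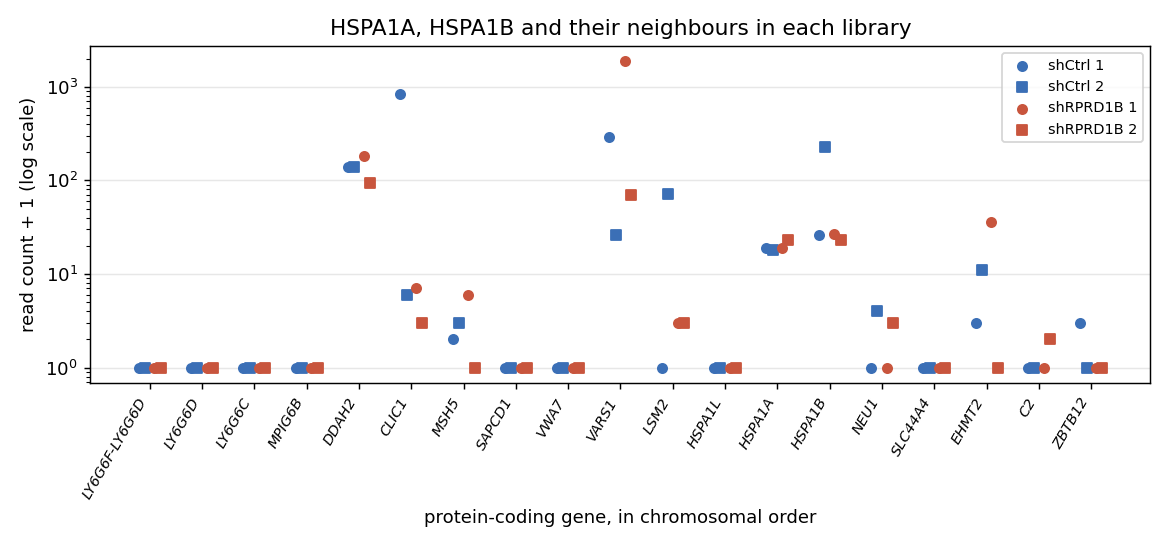
Read counts plus 1 on a log scale in each of the 4 libraries for HSPA1A, HSPA1B and the 17 protein-coding genes within 100 kb, in chromosomal order. HSPA1B stands out in shCtrl 2 with 225 reads, CLIC1 in shCtrl 1 with 834 and VARS1 in shRPRD1B 1 with 1872, while 8 genes are at 0 throughout.

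HSPA8, the constitutive cytosolic form and the clathrin-uncoating ATPase, was the most abundant member. It was at 1581 and 1628 CPM in shCtrl and at 1518 and 2130 CPM in shRPRD1B. The knockdown libraries lay on both sides of the controls, so the groups overlapped, and the second knockdown library was 1.40 times the first. The log2 fold change was 0.19 ± 0.18 (SE), and it ranged from -0.08 to 0.41 across the alternatives, changing sign with the knockdown library left out. Of its 50-base words 15.4% are shared with 11 other genes, the pseudogene HSPA8P1 most of all, and none of its 100-base words is shared. All 19 annotated HSPA pseudogenes together held 78 to 101 reads per library, against 74888 to 116781 for HSPA8 itself.

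HSPA2, a form best known from the male germ line, was the steadiest member. It was at 16.9 and 16.3 CPM in shCtrl and at 16.7 and 16.0 CPM in shRPRD1B, a log2 fold change of -0.02 ± 0.14 (SE, 95% interval -0.36 to 0.32). Its 801 and 794 reads in the controls are near the 623 and 775 of HSPA6, so both were measured there at a similar depth, and its 1097 and 875 reads in the knockdowns stand against 53 and 29.

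HSPA4, the HSP110-like exchange factor, was at 456 and 463 CPM in shCtrl and at 417 and 502 CPM in shRPRD1B. The controls lay between the knockdown libraries, and the interval of its log2 fold change ran from -0.32 to 0.32. Neither HSPA4 nor HSPA13 shares any 50-base word with another gene, so their counts do not depend on how shared reads were assigned.

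HSPA5, the endoplasmic reticulum form with the stress element shown above, was at 509 and 513 CPM in shCtrl and at 528 and 648 CPM in shRPRD1B. Both knockdown libraries were above both controls, the first by little (log2 fold change 0.20 ± 0.14, SE, 95% interval -0.14 to 0.54). The value was 0.05 without shRPRD1B 2 and 0.35 without shRPRD1B 1. HSPA13, also called STCH, a microsome-associated member that lacks the substrate-binding domain, was at 57.0 and 59.6 CPM in shCtrl and at 74.6 and 72.4 CPM in shRPRD1B. The groups did not overlap and each was tight, and HSPA13 had the highest fold change of the 10 (0.33 ± 0.11, SE, 95% interval 0.06 to 0.61). It stayed between 0.30 and 0.37 under all alternatives, and the edgeR fit to all 4 libraries did not call it.

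HSPA9, the mitochondrial form that drives protein import and iron-sulphur cluster transfer, was at 615 and 616 CPM in shCtrl and at 635 and 738 CPM in shRPRD1B. The controls were almost equal and both knockdown libraries were above them, the first by little (log2 fold change 0.16 ± 0.12, SE). This value too rested on shRPRD1B 2, at 0.05 without it and 0.26 without shRPRD1B 1. HSPA14, which forms the ribosome-associated complex with DNAJC2, was at 50.5 and 46.2 CPM in shCtrl and at 57.6 and 50.1 CPM in shRPRD1B, and the groups overlapped (log2 fold change 0.16 ± 0.13, SE). Of its exon bases, 17.4% are shared with a second annotated gene, MSANTD7, which was at 50.2 and 54.1 CPM in shCtrl and at 52.6 and 66.5 CPM in shRPRD1B.

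**Figure D2:**
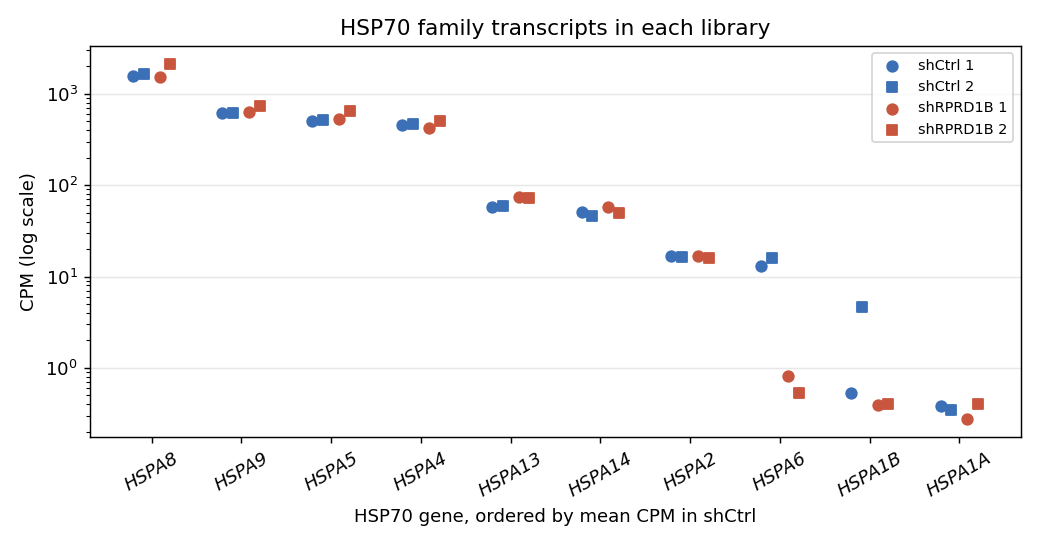
CPM on a log scale for the 10 HSP70 genes, ordered by their mean in shCtrl, with 1 point for each of the 4 libraries. HSPA6 is at 13.2 and 15.9 CPM in shCtrl and below 1 CPM in both shRPRD1B libraries, HSPA1B is high in shCtrl 2 alone, and the 4 points of each other gene lie close together.

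Counting members by whether their libraries separate the groups, 2 (HSPA6 and HSPA1B) were lower in both knockdown libraries than in both controls and 3 (HSPA5, HSPA9 and HSPA13) were higher, while the remaining 5 overlapped. Over all genes tested the libraries of the groups did not overlap in 40.9%, 20.6% lower and 20.3% higher. The members' median log2 fold change was 0.08, with 5 of 10 positive, and the median of all genes was 0.00, with 50.5% positive and the middle of the distribution from -0.21 to 0.19. Of the members, HSPA6, HSPA1B, HSPA5 and HSPA13 lie outside that middle range.

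**Figure D3:**
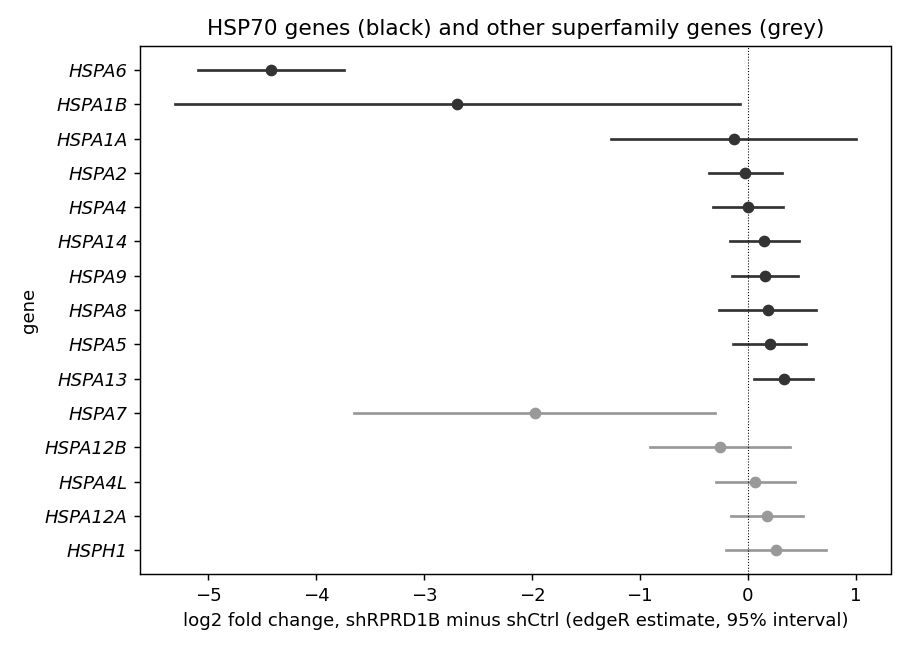
Fitted log2 fold change (shRPRD1B minus shCtrl) with its 95% interval for the 10 HSP70 genes in black and 5 other tested superfamily genes in grey. HSPA6 at -4.42 has a narrow interval far from 0, HSPA1B at -2.69 a wide one that ends at -0.07, and the other members lie between -0.13 and 0.33.

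The family's sum was similar in 3 of the libraries and higher in the fourth. The 10 members summed to 3300 and 3363 CPM in shCtrl and to 3248 and 4158 CPM in shRPRD1B, or 0.328% and 0.337% against 0.325% and 0.416% of all reads. HSPA8, HSPA9, HSPA5 and HSPA4 made up 95.4% to 96.6% of the sum in every library, with HSPA8 alone at 46.7% to 51.2%. The counts of HSPA1A and HSPA1B in this sum cannot be read as levels, so the sum and shares describe counted reads only. HSPA6 was 0.399% and 0.474% of the sum in shCtrl and 0.0249% and 0.0127% in shRPRD1B, so its difference hardly moved the total. The larger sum in shRPRD1B 2 came with more HSPA8, HSPA5, HSPA4 and HSPA9 in that library than in shRPRD1B 1, by factors of 1.40, 1.23, 1.20 and 1.16.

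Levels of different genes can be compared only per length, here as the group's mean CPM per kb of the longest principal transcript in GENCODE 29. In shCtrl HSPA8 led at 651 CPM per kb, followed by HSPA5 at 131 and HSPA9 at 130 (218 with its shorter transcript), which could not be ordered, and HSPA4 at 95.3. HSPA14 at 25.4 and HSPA13 at 14.6 came next. HSPA6 at 6.13 stood above HSPA2 at 3.08, but with the shorter HSPA2 transcript HSPA2 came to 6.11 and 5.90 in the 2 libraries, inside the range of HSPA6 (5.55 and 6.72). In shRPRD1B HSPA6 was at 0.282 CPM per kb, below HSPA2 at 3.03 (5.91 with the shorter transcript) in either case. HSPA5 at 150 and HSPA9 at 145 (243 with its shorter transcript) again could not be ordered, and the order of the genes around them was unchanged. HSPA1A and HSPA1B were left out of this order because their counts cannot be read as levels.

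The remaining superfamily genes were measured as a fixed list of 7, of which 5 could be tested. None was called by edgeR, DESeq2, limma voom or the fit with a replicate block, and 1 (HSPA7) had an unadjusted p under 0.05. HSPH1, the main cytosolic HSP110 and itself heat-induced, was at 273 and 290 CPM in shCtrl and at 276 and 399 CPM in shRPRD1B, with the high value again in shRPRD1B 2. HSPA4L was at 114 and 123 CPM in shCtrl and at 110 and 139 CPM in shRPRD1B (log2 fold change 0.07). HSPA12A, a distant member, was at 41.6 and 42.9 CPM against 51.9 and 43.5 CPM, with both knockdown libraries above the controls, the second by little (0.18 ± 0.13, SE). HSPA12B overlapped between the groups at about 2 CPM (-0.26 ± 0.26, SE). HSPA1L was at 0 and HYOU1, the endoplasmic reticulum HSP110, had 2, 0, 1 and 0 reads. Both have copies outside the primary chromosomes (4 and 22 transcripts), so their counts are not read as levels.

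The genes whose profile over the 4 libraries was nearest to that of HSPA6 were searched among those with at least 5 CPM in shCtrl, by Euclidean distance of log2 CPM from the shCtrl mean. DDX24, a DEAD-box helicase gene, had a distance of 1.64, at 23.5 and 28.2 CPM in shCtrl and 2.23 and 2.86 CPM in shRPRD1B. DDX24 also has 11 transcripts outside the primary chromosomes. DHRS2, a short-chain dehydrogenase gene, had a distance of 2.32, at 11.4 and 12.3 CPM against 1.39 and 1.92 CPM. The other 3 have no symbol in the tables used, and the nearest of them, ENSG00000288293.1 at a distance of 1.48, was at 37.4 and 11.0 CPM in shCtrl and at 1.33 and 0.894 CPM in shRPRD1B. ENSG00000282958.5 and ENSG00000277273.5 are GENCODE 29 genes outside the primary chromosomes. ENSG00000282958.5 was at 83.0 and 40.5 CPM in shCtrl and 4.41 and 5.35 CPM in shRPRD1B. ENSG00000277273.5 was at 7.37 and 3.39 CPM against 0.534 and 0.493 CPM. No other HSP70 member and no gene of the chaperone lists was among these 5. HSPA1A, HSPA1B and HSPA7 could not enter the search, with shCtrl means of 0.365, 2.58 and 0.334 CPM, below the 5 CPM limit. Nothing is read from their absence.

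**Figure D4:**
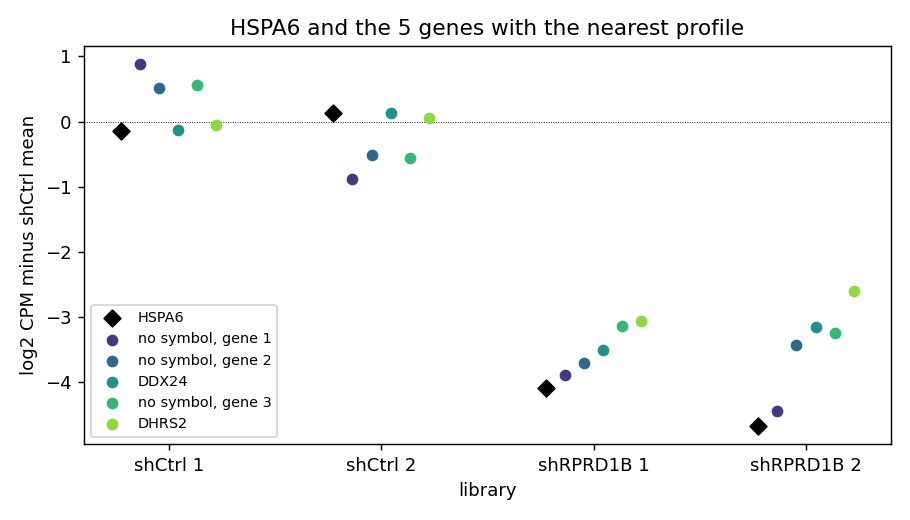
Log2 CPM minus the shCtrl mean in each library for HSPA6 (diamonds) and the 5 genes with the nearest profile, 3 of which have no symbol. HSPA6 is at -4.10 and -4.68 in the shRPRD1B libraries, and DDX24 and DHRS2 vary little between the shCtrl libraries, as HSPA6 does.

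The chaperone network around the family was described with 10 further lists. None of their genes was called by edgeR, beside the 0.0689% of all genes, and none by limma voom. Of the 28 heat-inducible HSF1 target genes, 26 were tested, 11 had a positive fold change, the median was -0.02 and none had an unadjusted p under 0.05. DNAJB1, the J-domain partner that is induced with HSPA1A, was at 220 and 229 CPM in shCtrl and at 208 and 229 CPM in shRPRD1B. BAG3, an exchange factor for selective autophagy, was at 86.6 and 87.3 CPM against 79.4 and 92.7 CPM. HSP90AA1, the inducible HSP90, was at 2863 and 2974 CPM against 2776 and 3072 CPM. HSPD1 and HSPE1, the mitochondrial chaperonin pair, had log2 fold changes of -0.03 ± 0.12 and -0.06 ± 0.15 (SE). HSPB1, a small heat shock protein, was at 210 and 190 CPM in shCtrl and at 167 and 84.4 CPM in shRPRD1B (-0.67 ± 0.31, SE). HSPB1 had the lowest log2 fold change of these 26 tested genes. Of the 24 genes of this list in the promoter table, 16 had no match to either heat shock form. DNAJB1, HSPH1, HSPD1 and HSP90AA1 were among these 16, but only exact words in the promoter window were searched. No match there does not show that an element is absent. The 3-unit form was found in CHORDC1, which also has copies outside the primary chromosomes, in SERPINH1 and in DNAJA1. HSF2, a second heat shock factor, was at 52.8 and 50.8 CPM in shCtrl and at 60.3 and 55.4 CPM in shRPRD1B. HSF1 had 6, 2, 3 and 3 reads and 14 transcripts outside the primary chromosomes, so its level could not be read.

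Cochaperones of HSP70 gave no calls either, by edgeR or by DESeq2. Of 48 J-domain genes 42 were tested, with 2 higher and 3 lower at an unadjusted p under 0.05 and a median log2 fold change of -0.01. HSCB, which works with HSPA9 in iron-sulphur cluster assembly, was among the lower ones (-0.58 ± 0.15, SE), as was DNAJC24 (-0.53 ± 0.14, SE), and DNAJC5 of synaptic vesicles among the higher ones (0.38 ± 0.11, SE). Of 15 exchange and binding factors, all tested, 1 was higher and 2 were lower by the same measure. The lower ones were BAG2 (-0.48 ± 0.11, SE) and STUB1, the ubiquitin ligase that acts on HSP70 clients, at 222 and 194 CPM in shCtrl and 169 and 112 CPM in shRPRD1B. The higher one was BAG4 (0.36 ± 0.11, SE). Unadjusted p-values under 0.05 occurred in 7.49% of all genes, 3.55% higher and 3.94% lower.

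Partners of the HSP90, endoplasmic reticulum and mitochondrial arms held the 2 genes of these lists that DESeq2 called, UNC45A and ERO1A. Of 13 HSP90 genes the lowest was UNC45A, a myosin cochaperone, at 153 and 150 CPM in shCtrl and 94.7 and 88.4 CPM in shRPRD1B (-0.73 ± 0.11, SE). Its adjusted p was 0.202 with edgeR, and it passed the threshold with DESeq2 and with the replicate block. Of 23 tested endoplasmic reticulum and unfolded protein response genes, the group in which HSPA5 works, 13 had a positive fold change and the median was 0.05. HSP90B1, which shares its stress response with HSPA5, had a log2 fold change of 0.09 ± 0.14 (SE). ERO1A, an oxidase for disulphide formation, was at 94.2 and 98.9 CPM against 63.7 and 59.6 CPM (-0.65 ± 0.11, SE), with an edgeR adjusted p of 0.295 and a DESeq2 adjusted p of 0.00311. Of 14 tested partners of HSPA9, 3 had a positive fold change and the median was -0.07, and GRPEL1, its exchange factor, was at -0.04 ± 0.13 (SE). Of 15 tested chaperonin and prefoldin genes none had an unadjusted edgeR p under 0.05 (median -0.03). Neither did any of the 4 tested small heat shock proteins (median 0.07) or the 4 tested heat shock factors and regulators (median 0.09). The small heat shock protein list summed to 214 and 196 CPM in shCtrl and to 172 and 88.4 CPM in shRPRD1B. Most of this was HSPB1, and of the 4 tested genes 2 had a positive fold change. The 4 ribosome-associated chaperones also had no such p (median -0.04), among them DNAJC2, the partner of HSPA14 (-0.03 ± 0.15, SE).

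**Figure D5:**
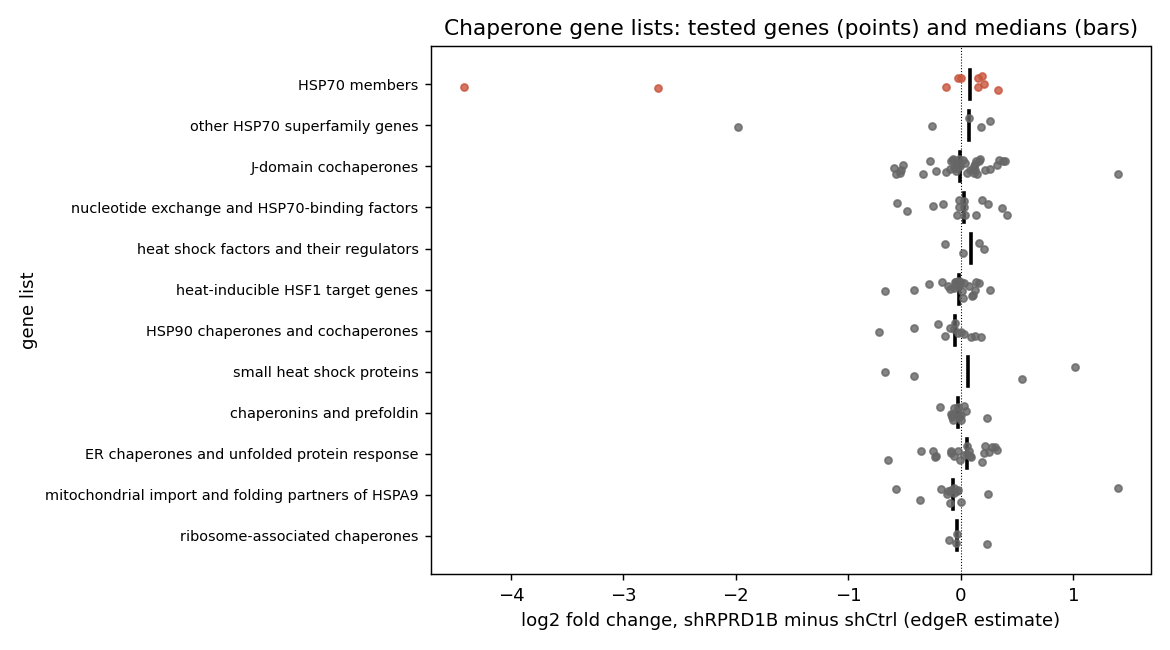
Fitted log2 fold change of each tested gene (points) and the median (bar) for the HSP70 members and 11 lists of related chaperone genes. The medians lie between -0.07 and 0.09, and HSPA6 and HSPA1B are the lowest points of all lists.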

How the data were processed

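RNA from 2 shCtrl and 2 shRPRD1B libraries of HEK293T cells was analysed. The deposited values are raw read counts, 1 file per library, and the submitters' processing notes name Trim Galore, HISAT2, featureCounts and hg38. No source used here gives versions, annotation release, strand setting or the handling of multi-mapping reads. The members and lists were chosen with earlier results of these data known. Named genes were all members, the other superfamily genes, fixed chaperone partners, up to 4 genes of smallest p per list, the 5 profiles nearest to HSPA6, neighbours within 100 kb and RPRD1B; others are named as examples, after their values were seen.

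Counts were fitted with edgeR 4.0.16 (R 4.3.3; quasi-likelihood, robust, TMM, filterByExpr with a minimum count of 10, group only). P-values were adjusted by Benjamini-Hochberg over 20319 genes, with a threshold of 0.05. The fit was tested on simulated data. Alternatives used DESeq2 1.42.0, limma 3.58.1 voom, other scaling and filters, a replicate block, summed near copies and leaving out each library. The log2 CPM values had a prior count of 2. Symbols matched 62686 identifiers. Shared sequence came from GENCODE 29, promoters and coordinates from RefSeq GRCh38.p14.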

Additional observations from a re-analysis of the deposited data

How the results depend on the processing

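The 14 genes called by edgeR became 240 with DESeq2 (126 higher, 114 lower), 0 with limma voom (1521 genes had an unadjusted edgeR p under 0.05), 40 without the low-count filter, 0 with a minimum of 5 CPM in 2 libraries and 7 with edgeR's older quasi-likelihood fit, which was chosen after seeing the data. Leaving out each library gave 54 to 6235 calls, the highest without shRPRD1B 1 and 2229 without shRPRD1B 2, with the lone library assumed to vary like the other group. With the replicate number as a block 141 genes were called. Same-numbered libraries deviated together over genes with a correlation of 0.315, but 2 pairs do not show a pairing. HSPA6 was called by DESeq2 and with the block, and not by limma voom or with the 5 CPM filter. Its fold change hardly moved. Calls with a library left out are not given by member, because 1 group then rests on 1 library. In those fits the log2 fold change ran from 0.05 to 0.35 in HSPA5, 0.05 to 0.26 in HSPA9 and 0.30 to 0.37 in HSPA13. HSPA1B depended on shCtrl 2 (-0.40 without it), and HSPA1A became -2.01 when summed with HSPA1B and 0.14 without shRPRD1B 1. HSPA4 ranged from -0.14 to 0.13 and HSPA8 from -0.08 to 0.41. Among the lists, DESeq2 called 1 HSP90 gene and 1 endoplasmic reticulum gene, and the block called 1 HSP90 gene. Over the left-out libraries the calls ran from 0 to 3 in the other superfamily genes, small heat shock proteins and chaperonins, 0 to 15 in the J-domain genes, 0 to 6 in the exchange factors and HSP90 genes, 0 to 7 in the HSF1 targets, 0 to 12 in the endoplasmic reticulum genes and 0 to 5 in the partners of HSPA9. The cause of these shifts was not tested. With 53 and 29 reads of HSPA6 in the knockdowns, counting error limits its level there.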
